A study of Homo sapiens with 8 samples.

Results

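The 47 genes described here carry out and regulate the copying of chromosomal DNA, and they were taken by name: 6 subunits of the MCM2-7 helicase, MCM8 and MCM10, 5 origin recognition subunits, the licensing factors CDC6 and CDT1 with their inhibitor geminin (GMNN), the kinase pair CDC7 and DBF4, CDC45 with the 4 GINS subunits, the sliding clamp PCNA with 5 clamp loader subunits, 8 primase and polymerase subunits, FEN1 and LIG1, 3 subunits of replication protein A, and 5 enzymes of deoxynucleotide supply. All 47 were found among 22627 gene symbols, and all 47 were among the 11052 genes compared, whose levels averaged 1 FPKM or more over the groups. FPKM is a level scaled to transcript length and to the fragments mapped in the group. The RNA was that of NB4, an established line of human acute promyelocytic leukaemia with the PML-RARA fusion gene, whose cells differentiate along the granulocytic path when given all-trans retinoic acid (ATRA).

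The groups were NB4 cells with a lentiviral hairpin against TFEB (shTFEB) under 1 µM ATRA, shTFEB cells under ethanol vehicle, NB4 cells with a lentiviral scrambled hairpin (shScr) under 1 µM ATRA, and shScr cells under ethanol vehicle, each for 72 h. The titles of both shScr ATRA samples also carry the word vehicle; they were placed under ATRA by their description and treatment labels, and every shScr ATRA value rests on that. The labels give 2 samples per group, 8 in all, but in the deposited tables each transcript model has a single value per group. Spread between samples was therefore out of reach, nothing was tested, and the differences below are sizes of ratios that no replicate checks. Whether a hairpin line was 1 clone or a pool of cells is not given in the sources used here. TFEB, the hairpin's target, which activates genes of lysosomes and autophagy, stood at 8.44 FPKM in shTFEB ATRA, 1.35 FPKM in shTFEB vehicle, 19.4 FPKM in shScr ATRA and 1.20 FPKM in shScr vehicle. Under ATRA the shTFEB level was 43.6% of that in shScr cells, and under vehicle it was not lower, so the vehicle group is called "the vehicle group labelled shTFEB" where the lines are compared. Of the promyelocyte markers, MPO (594, 2462, 662 and 3871 FPKM in the same order of groups), PRTN3 and AZU1 were present in all 4 groups, CTSG reached 3.27 FPKM at most, and ELANE was at or near 0. The 4 erythroid, 3 B cell and 4 fibroblast markers together summed to at most 1.57 FPKM in any group, while of the T cell markers CD4, which monocytic cells also express, reached 159 FPKM and CD3D 3.76 FPKM, and the 4 epithelial markers summed to 21.2 and 33.3 FPKM in shTFEB ATRA and vehicle and to 27.4 and 34.1 FPKM in shScr ATRA and vehicle. KRT8 was at 4.71 FPKM in shTFEB ATRA and 3.32 FPKM in shScr ATRA, and at 0 in both vehicle groups. The part of these markers in the results below was not tested. Relative to shScr vehicle, sequencing depth was estimated from the lowest FPKM values as 0.911 in shTFEB ATRA, 1.17 in shTFEB vehicle and 1.05 in shScr ATRA. This estimate takes the FPKM of a group as scaled to its mapped fragments alone, which was not checked.

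A chromosome is copied once per cell cycle because origins are loaded in G1 and fired in S phase. The origin recognition complex, CDC6 and CDT1 load the MCM2-7 ring on DNA, and geminin blocks reloading once S phase has begun. The CDC7-DBF4 kinase, CDC45 and GINS turn the ring into the active helicase, primase and the polymerases copy the strands behind it, and PCNA, loaded by RFC, holds the polymerases on DNA. Many of these genes are transcribed at the G1/S boundary by E2F factors, and cells that differentiate terminally leave the cycle and stop copying DNA.

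Promoter sequence was matched by symbol for 41 of the 47 genes (RefSeq, GRCh38.p14), 54 windows of 300 bases in all, each running from 250 bases before the annotated start to 50 after it. The windows were searched on both strands for the E2F letters TTTCCCGC, TTTGGCGC, TTTCGCGC and TTTGCCGC, some of which overlap each other, and for CCAAT, the letters of the NF-Y box. E2F letters were present in 22 of 41 replication genes (53.7%), against 7.02% of the 8721 compared genes with a window, and in 40.7% of the replication genes' windows, against 3.31% of all 35116 windows. CCAAT was present in 25 of 41 replication genes (61.0%), against 43.5% of the compared genes, and in 55.6% of their windows, against 34.6% of all windows. Both kinds of letters were present in 12 replication genes and neither in 6. The 250 bases before the start are printed for 6 genes that show the range of the data: MCM6, which had the most E2F matches and fell in both lines, GMNN, with the largest gap between the lines, PCNA, the most abundant, GINS2, which fell by a similar amount in both lines, POLD2, with the deepest fall, and RRM2, which hardly moved. Capitals mark E2F letters and CCAAT (or their reverse complements GCGGGAAA, GCGCCAAA, GCGCGAAA, GCGGCAAA and ATTGG); each sequence reads 5′ to 3′ on the strand of its gene.
MCM6: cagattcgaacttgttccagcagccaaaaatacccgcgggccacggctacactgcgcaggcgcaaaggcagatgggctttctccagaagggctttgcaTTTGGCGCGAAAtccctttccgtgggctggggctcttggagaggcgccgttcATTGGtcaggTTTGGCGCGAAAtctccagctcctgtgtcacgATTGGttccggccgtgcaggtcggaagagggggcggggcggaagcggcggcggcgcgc
GMNN, upstream start: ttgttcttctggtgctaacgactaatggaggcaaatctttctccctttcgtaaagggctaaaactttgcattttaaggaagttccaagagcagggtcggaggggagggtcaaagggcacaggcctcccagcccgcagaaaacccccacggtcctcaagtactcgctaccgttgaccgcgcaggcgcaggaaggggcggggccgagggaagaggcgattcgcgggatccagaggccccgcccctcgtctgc
GMNN, downstream start: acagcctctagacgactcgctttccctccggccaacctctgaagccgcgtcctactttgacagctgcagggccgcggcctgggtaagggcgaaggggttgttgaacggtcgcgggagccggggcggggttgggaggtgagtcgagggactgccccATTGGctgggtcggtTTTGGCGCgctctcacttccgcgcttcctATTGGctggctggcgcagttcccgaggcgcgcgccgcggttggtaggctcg
PCNA, upstream start: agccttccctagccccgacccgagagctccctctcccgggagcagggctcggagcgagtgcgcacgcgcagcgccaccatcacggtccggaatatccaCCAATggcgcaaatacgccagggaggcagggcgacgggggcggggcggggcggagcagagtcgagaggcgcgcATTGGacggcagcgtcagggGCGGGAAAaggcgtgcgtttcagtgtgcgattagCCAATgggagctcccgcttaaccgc
PCNA, downstream start: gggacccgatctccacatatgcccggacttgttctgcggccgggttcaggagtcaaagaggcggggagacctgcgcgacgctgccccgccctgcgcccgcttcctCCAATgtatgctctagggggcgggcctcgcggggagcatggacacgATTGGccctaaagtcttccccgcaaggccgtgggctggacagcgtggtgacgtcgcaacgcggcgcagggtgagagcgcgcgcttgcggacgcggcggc
GINS2: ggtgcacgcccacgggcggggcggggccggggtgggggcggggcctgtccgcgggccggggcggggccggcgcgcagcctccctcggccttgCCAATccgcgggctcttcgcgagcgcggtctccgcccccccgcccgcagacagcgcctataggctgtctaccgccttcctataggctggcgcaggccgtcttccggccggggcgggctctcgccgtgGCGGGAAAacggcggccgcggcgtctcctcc
POLD2: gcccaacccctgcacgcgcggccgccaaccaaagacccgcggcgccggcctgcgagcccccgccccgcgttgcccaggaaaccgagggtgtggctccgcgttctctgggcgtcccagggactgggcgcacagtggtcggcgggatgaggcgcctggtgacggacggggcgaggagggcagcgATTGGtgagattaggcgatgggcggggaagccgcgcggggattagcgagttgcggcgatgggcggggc
RRM2: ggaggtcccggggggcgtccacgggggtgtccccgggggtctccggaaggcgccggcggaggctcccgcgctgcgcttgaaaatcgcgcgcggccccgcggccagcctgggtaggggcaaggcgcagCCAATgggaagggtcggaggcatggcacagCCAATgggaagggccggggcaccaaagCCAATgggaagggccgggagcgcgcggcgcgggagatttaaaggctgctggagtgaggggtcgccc
MCM6 (chr2:135876444-135876693, minus strand) holds TTTGGCGC 152 and 90 bases before the start, each time overlapping GCGCGAAA. GMNN has 2 annotated starts. The window of the downstream start (chr6:24775163-24775412, plus strand) holds TTTGGCGC 80 bases before the start, between ATTGG at 95 and ATTGG at 51 bases, and that of the upstream start (chr6:24774687-24774936) holds none of the letters searched. By their order along the gene, the deposited GMNN models with a level above 0 begin at the upstream start and the model of the downstream start is listed at 0 in all 4 groups. PCNA also has 2, and its window at the upstream start (chr20:5126623-5126872, minus strand) holds GCGGGAAA 59 bases before the start and 3 CCAAT matches, while that of the downstream start (chr20:5119959-5120208) holds 2 CCAAT matches and no E2F letters. By the same order the deposited PCNA level lies on the model of the downstream start alone, and the longer model is listed at 0 in all 4 groups. A gene is counted above as having a match when any of its windows has one. For E2F letters, GMNN and PCNA therefore count through a start whose model is listed at 0. CDC7 counts through its downstream start alone. By the same order the CDC7 model of that start is listed at 0 in both shTFEB groups and shScr vehicle, and at 1.16 FPKM in shScr ATRA. The other CDC7 models begin at its upstream start. GINS2 (chr16:85688955-85689204, minus strand) holds GCGGGAAA 31 bases before its start. POLD2 (chr7:44123549-44123798, minus strand) and RRM2 (chr2:10122489-10122738, plus strand, the downstream of 2 starts and that of its expressed model) hold CCAAT matches and none of the E2F letters searched. With ATRA, the median log2 ratio was -0.81 in shTFEB and -1.13 in shScr cells for the 22 genes with E2F letters, and -0.63 in shTFEB and -0.92 in shScr cells for the 19 without. E2F letters were present in 13 of the 20 genes with a window that fell in shScr cells and in 9 of the 21 that did not. The deepest fall among the 47 genes was that of POLD2, without such letters. A match is a run of letters and not a shown binding site.

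ATRA was accompanied by lower levels of replication genes in both lines. A gene is said to have fallen or risen where the log2 ratio of its FPKM, each increased by 1, was at least 1 in either direction, which marks size alone. In shTFEB cells 8 of 47 genes (17.0%) fell, against 10.5% of all genes compared, and in shScr cells 21 of 47 (44.7%) fell, against 15.2%. None rose in either line, where 1270 of the 11052 genes compared did in shTFEB and 1384 in shScr cells. Under median-of-ratios rescaling 5 fell in shTFEB cells (10.6%, against 7.996% of all genes) and 14 in shScr cells (29.8%, against 11.4%), so that the shTFEB share was then near that of all genes. At a 1.5-fold mark, 27 genes were lower in shTFEB cells (57.4%, against 24.4% of all genes) and 37 in shScr cells (78.7%, against 28.9%). The log2 ratio was below 0 for 45 of 47 genes in shTFEB cells, against 57.6% of all genes, and for all 47 in shScr cells, against 57.4%. Lower and upper bounds of a gene are the deposited bounds added up over its models. Those of both treatments did not overlap, with the lower level under ATRA, for 42 genes in shTFEB cells, against 46.1% of all genes, and for 47 in shScr cells, against 47.9%. The median log2 ratio of the 47 genes was -0.68 in shTFEB cells, where that of all genes was -0.13, and -0.99 in shScr cells, where that of all genes was -0.15. Under a median-of-ratios rescaling of the groups the median of all genes moved to 0.00 in shScr cells, all 47 genes stayed below 0 there, and 42 of 47 did so in shTFEB cells. In bulk RNA, fewer cells in S phase and less replication RNA per cell cannot be told apart.

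**Figure D1:**
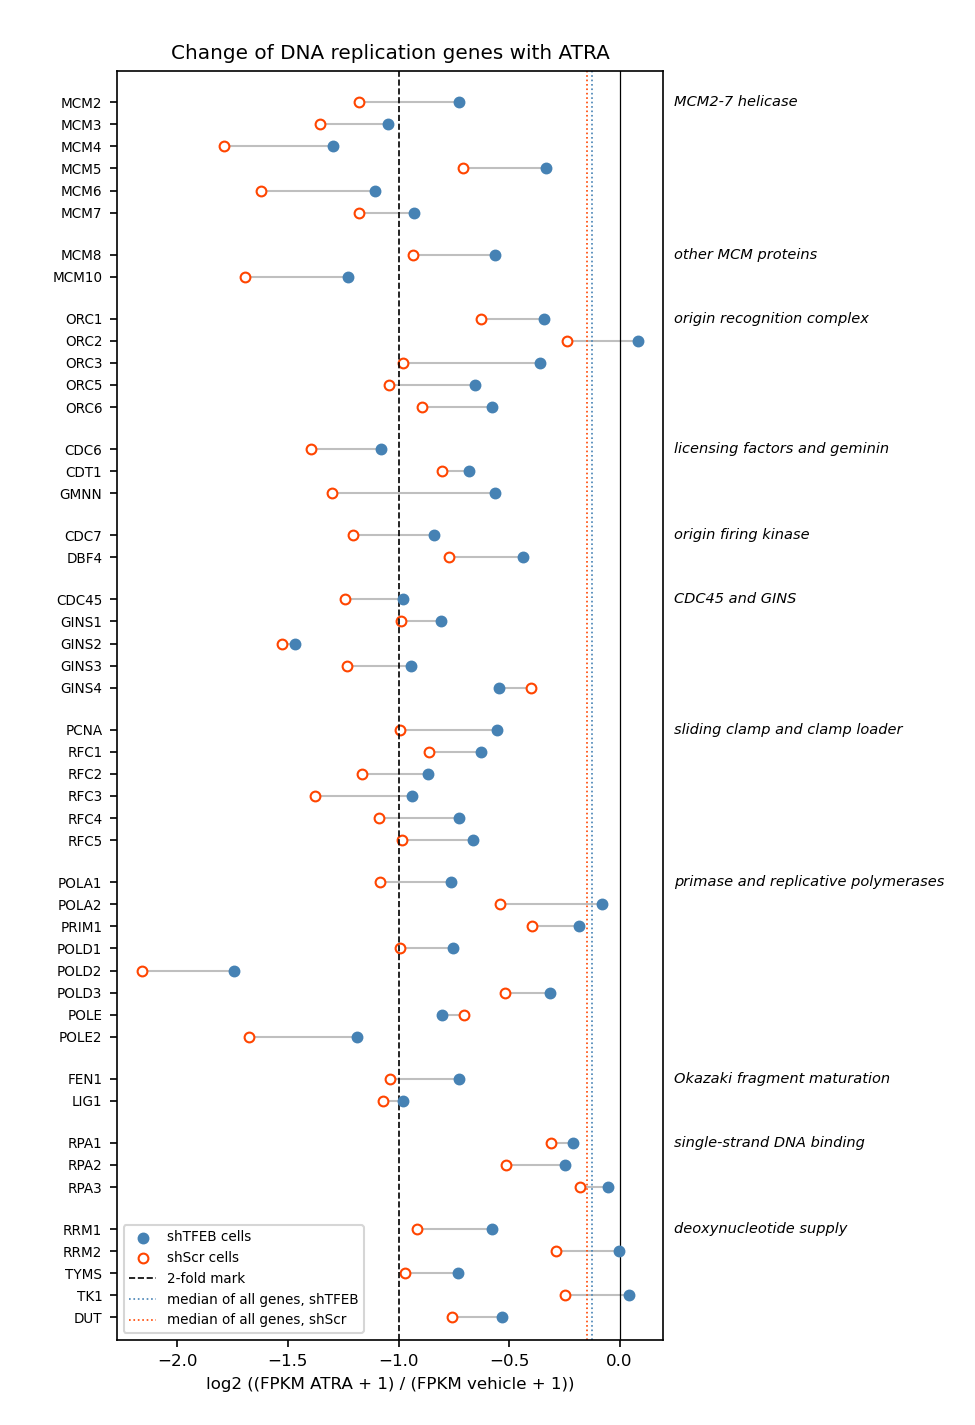
Each row is a gene, grouped by role; the x axis is the log2 ratio of ATRA to vehicle after adding 1 FPKM, with filled points for shTFEB cells and open points for shScr cells, 1 value each. In 45 of 47 rows the shTFEB point lies right of the shScr point, and 21 open and 8 filled points lie at or left of the dashed 2-fold mark.

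The MCM2-7 ring, the core of the replicative helicase, moved with ATRA in all of its subunits, which all had lower levels in both lines. MCM4 stood at 32.7 FPKM in shTFEB ATRA and 81.9 FPKM in shTFEB vehicle, against 24.3 FPKM in shScr ATRA and 86.4 FPKM in shScr vehicle. Its log2 ratio was -1.30 in shTFEB and -1.79 in shScr cells, the deepest of the ring. MCM6 stood at 46.6 FPKM in shTFEB ATRA and 101 FPKM in shTFEB vehicle, and at 30.5 FPKM in shScr ATRA and 96.0 FPKM in shScr vehicle. MCM3 stood at 77.6 and 161 FPKM in shTFEB ATRA and vehicle, and at 64.1 and 166 FPKM in shScr ATRA and vehicle. These 3 subunits fell in both lines. MCM2 (log2 ratio -1.18) and MCM7 (-1.18) fell in shScr cells, and had ratios of -0.73 and -0.93 in shTFEB cells. MCM5 did not pass the mark in either line: it stood at 51.7 and 65.5 FPKM in shTFEB ATRA and vehicle, and at 40.5 and 66.8 FPKM in shScr ATRA and vehicle.

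Because the subunits moved by unequal amounts, their order of level changed with ATRA. In both vehicle groups MCM7 was highest, followed by MCM3 and MCM6, and MCM5 was lowest. In both ATRA groups MCM7 and MCM3 kept the first places, and MCM4 was lowest. The highest subunit exceeded the lowest 4.58-fold in shTFEB ATRA, 4.37-fold in shTFEB vehicle, 5.20-fold in shScr ATRA and 4.30-fold in shScr vehicle. MCM7 spans the microRNA gene MIR25 and touches AP4M1, and without stated strand handling its fragments are not fully separated from theirs. MCM10, which joins the helicase at initiation, fell in both lines. It stood at 7.95 and 20.0 FPKM in shTFEB ATRA and vehicle (39.8%), and at 5.76 and 20.9 FPKM in shScr ATRA and vehicle (27.6%). MCM8, a helicase of recombinational repair, had log2 ratios of -0.56 in shTFEB and -0.94 in shScr cells, without passing the mark.

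**Figure D2:**
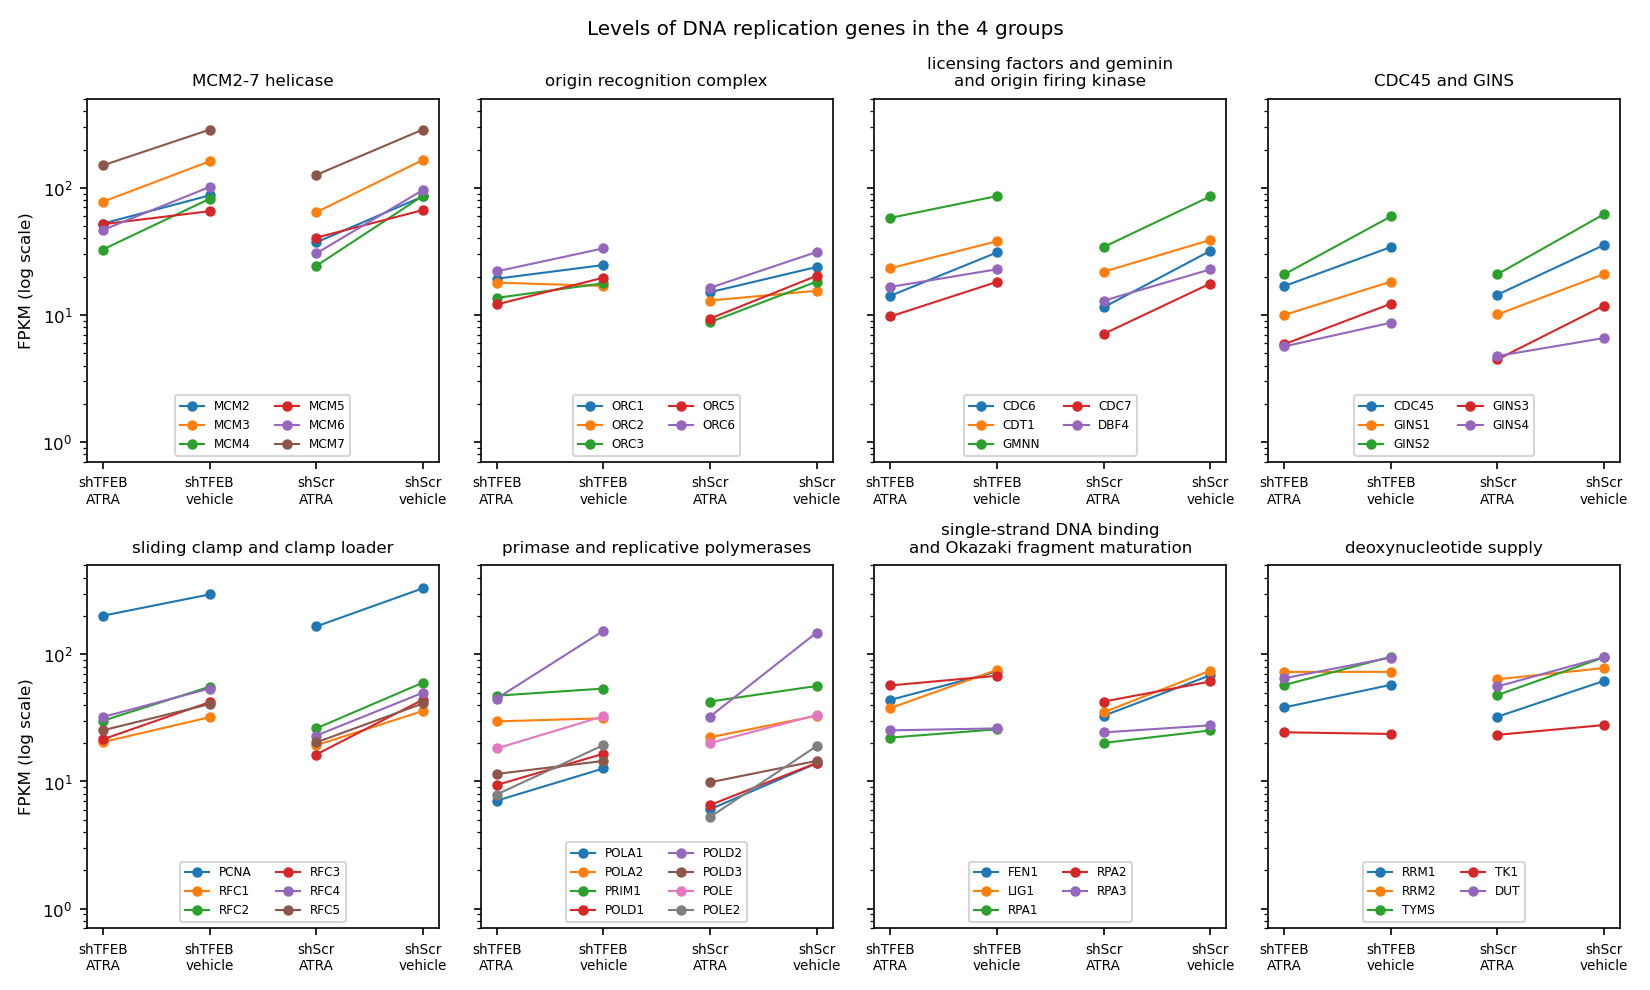
Levels in FPKM on a log axis, in panels of single or paired roles and without MCM8 and MCM10. There is 1 value per gene and group, and a line joins ATRA and vehicle of the same line of cells. PCNA is highest in all 4 groups, between 165 and 330.4 FPKM, and in shScr cells the lines of RPA3, ORC2, TK1 and RRM2 are the 4 flattest.

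The origin recognition complex marks the sites where the ring is loaded, and 1 of its 5 subunits fell. ORC5 fell in shScr cells: it stood at 12.1 and 19.6 FPKM in shTFEB ATRA and vehicle, and at 9.35 and 20.3 FPKM in shScr ATRA and vehicle, a log2 ratio of -0.66 in shTFEB and -1.04 in shScr cells. ORC3 was just outside the mark in shScr cells and far from it in shTFEB cells, with 13.6 and 17.7 FPKM in shTFEB ATRA and vehicle, and 8.76 and 18.3 FPKM in shScr ATRA and vehicle. ORC2 had ratios of 0.08 in shTFEB and -0.24 in shScr cells, and its bounds in shTFEB ATRA and vehicle overlapped. ORC1, an ATPase related to CDC6, and ORC6 lay between -0.34 and -0.90. Summed over the 5 subunits, ATRA cells held 75.6% of the vehicle level in shTFEB and 57.3% in shScr cells, while the MCM2-7 sum was at 52.4% in shTFEB and 41.0% in shScr cells.

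CDC6, the loading ATPase, fell in both lines. It stood at 14.2 and 31.0 FPKM in shTFEB ATRA and vehicle, and at 11.5 and 31.9 FPKM in shScr ATRA and vehicle. CDT1, which brings MCM2-7 to the origin, stood at 23.3 and 38.0 FPKM in shTFEB ATRA and vehicle, and at 21.9 and 38.9 FPKM in shScr ATRA and vehicle, and passed the mark in neither line. Geminin, which binds and inhibits CDT1, differed most between the lines of all 47 genes. GMNN stood at 58.0 FPKM in shTFEB ATRA and 86.1 FPKM in shTFEB vehicle (67.4%), and at 34.2 FPKM in shScr ATRA and 85.7 FPKM in shScr vehicle (39.9%). Its vehicle levels were nearly equal, and under ATRA the shTFEB level was 169.4% of the shScr level. The gene lies on hg19 chromosome 6 at 24775159 to 24786325, and its most abundant transcript model ran the same way, with 28.4 and 48.1 FPKM in shTFEB ATRA and vehicle and 16.4 and 42.4 FPKM in shScr ATRA and vehicle. GMNN fell in shScr cells (log2 ratio -1.30) and not in shTFEB cells (-0.56). Both activators of origin firing moved less in shTFEB cells: CDC7 had log2 ratios of -0.84 in shTFEB and -1.21 in shScr cells, and its partner DBF4 of -0.44 and -0.77 in the same order.

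CDC45 and the GINS subunits complete the active helicase. GINS2 fell almost equally in both lines, with 20.8 and 59.5 FPKM in shTFEB ATRA and vehicle, and 20.9 and 62.1 FPKM in shScr ATRA and vehicle (35.0% of vehicle in shTFEB and 33.7% in shScr cells). CDC45 stood at 16.9 and 34.2 FPKM in shTFEB ATRA and vehicle, and at 14.4 and 35.5 FPKM in shScr ATRA and vehicle, a fall in shScr cells alone by the 2-fold mark. GINS3 had log2 ratios of -0.94 in shTFEB and -1.23 in shScr cells, GINS1 of -0.81 and -0.99. Among these values the one of GINS3 in shScr cells is past the mark. GINS4 was the least abundant gene in 3 of the 4 groups, at 5.65 and 8.69 FPKM in shTFEB ATRA and vehicle and 4.76 and 6.59 FPKM in shScr ATRA and vehicle. It was 1 of 2 genes with a larger decrease in shTFEB (-0.54) than in shScr cells (-0.40).

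PCNA, the ring that tethers the polymerases (hg19 chromosome 20, 5095599 to 5107268 over both models), was the most abundant of the 47 genes in every group. It stood at 201 FPKM in shTFEB ATRA and 296 FPKM in shTFEB vehicle, and at 165 FPKM in shScr ATRA and 330.4 FPKM in shScr vehicle. Its log2 ratio of -0.55 in shTFEB and -0.99 in shScr cells left it just outside the mark in shScr cells. The shScr ATRA level of PCNA lies above its own bounds of 141 to 147 FPKM, so its side of the mark is uncertain. In the other groups the PCNA level lies within its bounds. PCNA shares 384 bases with the antisense gene PCNA-AS1, whose listed mean level was 379 FPKM, and the fragments of both cannot be told apart. Of the loader subunits, RFC2, RFC3 and RFC4 fell in shScr cells and none in shTFEB cells. RFC3 changed most, with 21.4 and 42.0 FPKM in shTFEB ATRA and vehicle, and 16.3 and 43.9 FPKM in shScr ATRA and vehicle. RFC1, the large subunit, and RFC5 had ratios between -0.63 and -0.98.

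The polymerases held both the deepest fall and some of the smallest changes. POLD2, the second subunit of the lagging-strand polymerase delta, stood at 44.8 FPKM in shTFEB ATRA and 153 FPKM in shTFEB vehicle (29.4%), and at 32.3 FPKM in shScr ATRA and 148 FPKM in shScr vehicle (21.8%). Its log2 ratio was -1.75 in shTFEB and -2.16 in shScr cells, in both lines the lowest of the 47. The gene lies on hg19 chromosome 7 at 44154279 to 44163169. The catalytic subunit POLD1 stood at 9.37 and 16.5 FPKM in shTFEB ATRA and vehicle and at 6.52 and 14.0 FPKM in shScr ATRA and vehicle, so that POLD2 exceeded it in all 4 groups. POLE2, the second subunit of the leading-strand polymerase epsilon, fell in both lines, with 7.90 and 19.3 FPKM in shTFEB ATRA and vehicle and 5.25 and 19.0 FPKM in shScr ATRA and vehicle. POLE, the catalytic subunit, passed the mark in neither line and was the other gene with a larger decrease in shTFEB (-0.81) than in shScr cells (-0.70). POLA1, the catalytic subunit of polymerase alpha, fell in shScr cells (-1.08) and had a ratio of -0.76 in shTFEB cells. Its partner POLA2 stood at 29.7 and 31.4 FPKM in shTFEB ATRA and vehicle and at 22.2 and 32.8 FPKM in shScr ATRA and vehicle, with overlapping bounds in shTFEB cells. PRIM1, the primase, and POLD3 lay between -0.18 and -0.52.

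Lagging-strand fragments are trimmed by the nuclease FEN1 and joined by the ligase LIG1, and both genes fell in shScr cells. FEN1 stood at 43.8 and 73.1 FPKM in shTFEB ATRA and vehicle and at 32.8 and 68.4 FPKM in shScr ATRA and vehicle. LIG1 stood at 37.7 and 75.4 FPKM in shTFEB ATRA and vehicle, just outside the mark, and at 35.0 and 74.5 FPKM in shScr ATRA and vehicle, just inside it. Replication protein A, which coats single-stranded DNA in replication and repair, had the medians nearest to 0 of the 11 roles. RPA1, RPA2 and RPA3 had log2 ratios between -0.25 and -0.05 in shTFEB cells and between -0.51 and -0.18 in shScr cells, and their summed level was 87.1% of vehicle in shTFEB and 76.3% in shScr cells.

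None of the 5 deoxynucleotide genes passed the mark. TYMS, thymidylate synthase, came nearest, with 57.3 and 95.6 FPKM in shTFEB ATRA and vehicle and 47.8 and 94.7 FPKM in shScr ATRA and vehicle; it overlaps ENOSF1 over 3176 bases. RRM1 and RRM2 encode the large and small subunits of ribonucleotide reductase, and their levels changed unequally. RRM1 stood at 38.2 and 57.5 FPKM in shTFEB ATRA and vehicle and at 32.3 and 61.8 FPKM in shScr ATRA and vehicle. RRM2 stood at 72.7 FPKM in both shTFEB ATRA and shTFEB vehicle and at 63.6 and 77.9 FPKM in shScr ATRA and vehicle; its 1 expressed model carries the status LOWDATA in all 4 groups, so its values are the least certain. TK1, the thymidine salvage kinase, stood at 24.4 and 23.6 FPKM in shTFEB ATRA and vehicle and at 23.3 and 27.8 FPKM in shScr ATRA and vehicle. DUT, which removes dUTP, had ratios of -0.53 in shTFEB and -0.76 in shScr cells.

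The changes with ATRA ranked the genes similarly in both lines. Across the 47 genes the log2 ratios in shTFEB and shScr cells had a Pearson r of 0.93 and a Spearman rho of 0.91; the lines share no libraries, and genes are not independent replicates. Of the 10 lowest ratios of each line, 8 genes were common. The decrease was smaller in shTFEB than in shScr cells for 45 genes. All 8 genes that fell in shTFEB cells, MCM3, MCM4, MCM6, MCM10, CDC6, GINS2, POLD2 and POLE2, fell in shScr cells too, and 13 genes passed the mark in shScr cells alone. Near the mark these counts turn on small differences: within 0.1 of it, 5 genes lay outside and 2 inside in shTFEB cells, and 8 lay outside and 5 inside in shScr cells. The 47 levels summed to 1651 FPKM in shTFEB ATRA and 2736 FPKM in shTFEB vehicle (60.4%), and to 1340 FPKM in shScr ATRA and 2785 FPKM in shScr vehicle (48.1%).

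**Figure D3:**
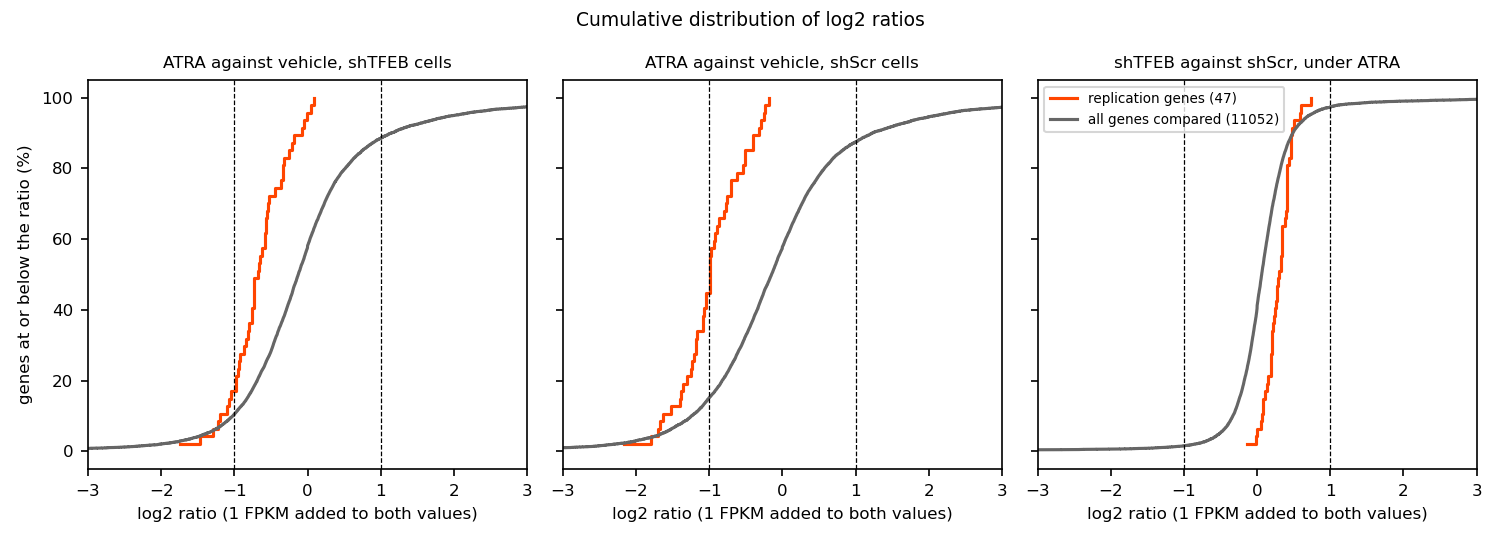
Cumulative share of genes (y axis, %) at or below a log2 ratio (x axis, 1 FPKM added to both values) for the 47 replication genes and for all 11052 genes compared. The replication genes lie left of all genes with ATRA, with medians of -0.68 in shTFEB and -0.99 in shScr cells, and right of them in shTFEB against shScr cells under ATRA, with a median of 0.30 against 0.06.

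Under vehicle the lines held nearly the same levels. No replication gene was past the 2-fold mark in the vehicle group labelled shTFEB against shScr vehicle, where 1.85% of all genes were. The log2 ratios ran from -0.22 for TK1 to 0.35 for GINS4, with a median of -0.03 (all genes 0.02). Bounds lay apart with the higher level in the vehicle group labelled shTFEB for 6 genes (21.8% of all genes) and with the lower level there for 8 (14.9% of all genes).

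Under ATRA 44 of 47 replication genes had the higher level in shTFEB cells when set against shScr cells, beside 58.9% of all genes, by amounts under 2-fold. None passed the 2-fold mark, which 4.25% of all genes did. The median log2 ratio was 0.30, where that of all genes was 0.06, and 27 of the 47 ratios exceeded 0.26, the upper quartile of all genes. Bounds lay apart with the higher level in shTFEB cells for 40 genes, against 35.0% of all genes. At a 1.5-fold mark GMNN (log2 ratio 0.74) and MCM6 (0.60) were higher, 2 of 47, against 7.26% of all genes. ORC3 (0.58), POLE2 (0.51) and MCM2 (0.48) came next. CDT1, GINS1, GINS2, RFC1, RPA3 and TK1 had overlapping bounds, and POLE was lower in shTFEB cells (-0.13) with bounds apart. Under median-of-ratios rescaling 43 of 47 ratios stayed above 0, and under upper-quartile rescaling 42 did.

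**Figure D4:**
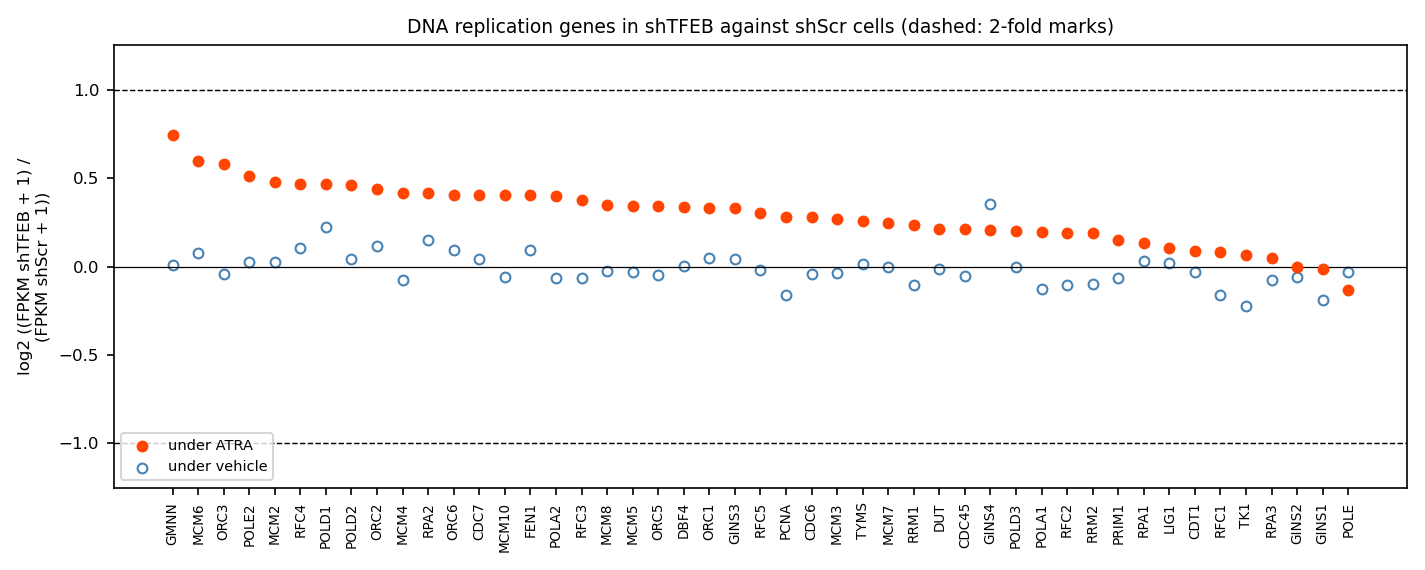
The log2 ratio of shTFEB to shScr cells (y axis, 1 FPKM added to both values) for each of the 47 genes, ordered by the ratio under ATRA, with filled points for ATRA and open points for vehicle. Of the filled points 44 lie above 0, led by GMNN at 0.74, and no point reaches the dashed 2-fold marks.

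The difference between the responses (log2 ratio in shTFEB minus that in shScr cells) was above 0 for 45 of 47 genes, against 56.1% of all genes, with a median of 0.31 (all genes 0.04). It was not tested, and it shares the ATRA groups with the preceding comparison. It was largest for GMNN (0.74), ORC3 (0.62) and MCM6 (0.52), and below 0 for GINS4 (-0.14) and POLE (-0.10). The 5 myeloid markers, all detected, did not move together. Their levels summed to 441 FPKM in shTFEB ATRA and 147 FPKM in shTFEB vehicle, and to 509 FPKM in shScr ATRA and 132 FPKM in shScr vehicle. ITGAM, SPI1 and CEBPE rose in both lines, CD33 had log2 ratios of 0.02 in shTFEB and 0.31 in shScr cells, and CEBPA fell, with -1.90 in shTFEB and -2.81 in shScr cells. The difference of responses was below 0 for 4 of them and 0.91 for CEBPA. Their part in the difference between the lines was not tested.

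A fixed list of 29 other genes of the replication fork and its origins was compared as well. Of these, 4 fell and 1 rose in shTFEB cells, and 6 fell and 1 rose in shScr cells. Of all 11052 genes compared, 10.5% fell in shTFEB and 15.2% in shScr cells, and 1270 genes rose in shTFEB and 1384 in shScr cells. The median log2 ratios of the list were -0.37 in shTFEB and -0.58 in shScr cells. DSCC1, of an alternative clamp loader, was lowest, with ratios of -1.36 in shTFEB and -1.59 in shScr cells. SUPT16H and SSRP1, both subunits of the histone chaperone FACT, fell together: their ratios were -1.10 and -1.09 in shTFEB cells and -1.55 and -1.35 in shScr cells. POLE3, an accessory subunit of polymerase epsilon, had ratios of -1.22 in shTFEB and -1.52 in shScr cells. The single gene that rose was POLD4, the smallest subunit of polymerase delta, which stood at 27.8 FPKM in shTFEB ATRA and 4.89 FPKM in shTFEB vehicle, and at 30.9 FPKM in shScr ATRA and 4.39 FPKM in shScr vehicle. Its log2 ratio was 2.29 in shTFEB and 2.56 in shScr cells, opposite to that of POLD2. ORC4, the origin recognition subunit outside the 47, had ratios of 0.17 in shTFEB and 0.28 in shScr cells.

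**Figure D5:**
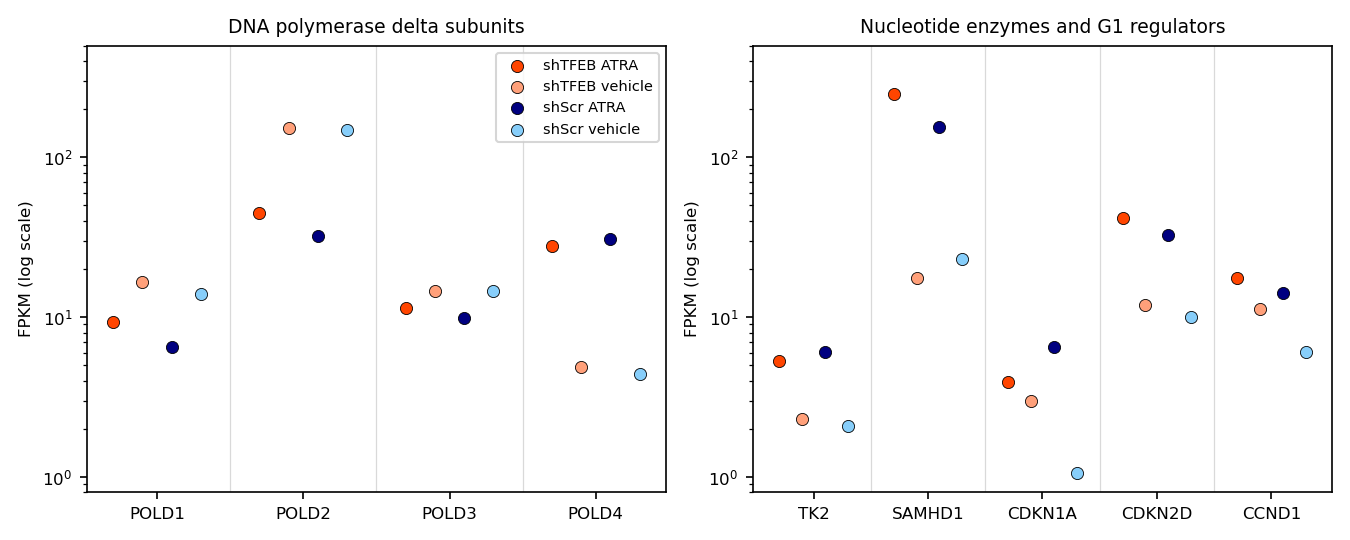
Levels in FPKM on a log axis, 1 point per gene and group, for the 4 subunits of polymerase delta and for genes of the nucleotide and G1 lists that rose in shScr cells. POLD2 lies between 32.3 and 44.8 FPKM under ATRA and POLD4 between 27.8 and 30.9 FPKM, while under vehicle POLD2 lies between 148 and 153 FPKM and POLD4 between 4.39 and 4.89 FPKM.

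Chromatin genes that act behind the fork gave 2 falls of 9 in shTFEB and 4 of 9 in shScr cells. The shares of all genes that fell were 10.5% and 15.2% in the same order. NASP, the histone H3-H4 chaperone, had log2 ratios of -1.03 in shTFEB and -1.50 in shScr cells, UHRF1, which directs maintenance methylation, of -1.12 and -1.04, SLBP, which processes histone mRNA, of -0.93 and -1.38, and CHAF1B of -0.92 and -1.07. Among 10 other deoxynucleotide enzymes, the largest change was a rise of SAMHD1, which hydrolyses deoxynucleotides. SAMHD1 stood at 249 FPKM in shTFEB ATRA and 17.5 FPKM in shTFEB vehicle, and at 155 FPKM in shScr ATRA and 23.1 FPKM in shScr vehicle. Its log2 ratio was 3.76 in shTFEB and 2.70 in shScr cells. TK2, the mitochondrial thymidine kinase, had a ratio of 0.93 in shTFEB cells and rose in shScr cells (1.18), and DTYMK, thymidylate kinase, had a ratio of -0.96 in shTFEB cells and fell in shScr cells (-1.16).

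Of 19 E2F, RB and DREAM factors compared, 4 fell in shTFEB and 3 in shScr cells, where 10.5% and 15.2% of all genes did. The median log2 ratios of these factors were -0.41 in shTFEB and -0.48 in shScr cells. MYBL2, a transcription factor of dividing cells, stood at 39.9 and 114 FPKM in shTFEB ATRA and vehicle and at 43.1 and 133 FPKM in shScr ATRA and vehicle. E2F1, an activator of S phase genes, stood at 9.60 and 21.2 FPKM in shTFEB ATRA and vehicle and at 8.28 and 21.2 FPKM in shScr ATRA and vehicle. TFDP1, the dimer partner of E2F, had ratios of -1.01 in shTFEB and -1.30 in shScr cells. E2F5, the fourth of the falls in shTFEB cells, is listed at 0 in 3 groups and at 7.17 FPKM in shTFEB vehicle, and no change is read from it. RB1 had ratios of 0.34 in shTFEB and 0.35 in shScr cells.

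G1/S regulators moved in both directions: of 14 compared, 2 fell and 1 rose in shTFEB cells, and 3 fell and 3 rose in shScr cells. Among all 11052 genes compared, 10.5% fell in shTFEB and 15.2% in shScr cells, and 1270 genes rose in shTFEB and 1384 in shScr cells. CDK4 had log2 ratios of -1.40 in shTFEB and -1.64 in shScr cells, CCNE1 of -1.07 and -1.46, and CCNA2 of -0.91 and -1.26. CDKN2D, an inhibitor of CDK4, rose in both lines and stood at 41.6 and 11.9 FPKM in shTFEB ATRA and vehicle and at 32.6 and 9.94 FPKM in shScr ATRA and vehicle. CDKN1A, which encodes the CDK and PCNA binding protein p21, stood at 3.92 and 2.98 FPKM in shTFEB ATRA and vehicle and at 6.54 and 1.05 FPKM in shScr ATRA and vehicle. CDKN1A rose in shScr cells (1.88) and not in shTFEB cells (0.30). CCND1 had ratios of 0.60 in shTFEB and 1.11 in shScr cells.

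The 20 mitosis genes all had log2 ratios below 0 in both lines, against 57.6% of all genes in shTFEB and 57.4% in shScr cells. None passed the 2-fold mark, where 10.5% of all genes fell in shTFEB and 15.2% in shScr cells. BUB1B (-0.998) and CENPF (-0.96) lay just outside the mark in shScr cells. The medians of the mitosis genes were -0.37 in shTFEB and -0.57 in shScr cells. Under median-of-ratios rescaling 17 of 20 stayed below 0 in each line. Under upper-quartile rescaling 20 did in shTFEB and 19 in shScr cells. Of the 9 translesion and repair polymerases compared none passed the 2-fold mark, with medians of -0.04 in shTFEB and 0.16 in shScr cells. Under median-of-ratios rescaling their shTFEB median was 0.09. Among 11 genes of ubiquitin control of licensing, 1 fell in shTFEB and 4 in shScr cells, beside 10.5% and 15.2% of all genes. SKP2 had ratios of -1.11 in shTFEB and -1.22 in shScr cells, DTL, which directs CDT1 to destruction on PCNA, of -0.74 and -1.34, CUL4A of -0.91 and -1.27, and FBXO31, the least abundant of these, passed the mark in shScr cells. Of 12 reference genes, B2M and GUSB rose in both lines and HPRT1 fell in shScr cells (-0.76 in shTFEB, -1.16 in shScr).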

How the data were processed

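RNA of NB4 cells was sequenced from TruSeq libraries, per the labels' protocols. The authors computed the deposited FPKM with TopHat, Cufflinks and Cuffdiff on hg19, per the submitters' processing notes, with versions not given in the sources used here. There is 1 deposited table per group, 4 in all, and each has an FPKM with its lower and upper bound for 65986 transcript models; how the 2 samples of a group were combined is not stated. Names came from a RefSeq table (GRCh38.p14), which matched 39841 of 41159 accessions (96.8%), and promoter windows from RefSeq of the same build.

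The models of each symbol were added up (92 models for the 47 genes), 1 FPKM was added, and log2 ratios were taken for 11052 genes with a mean of at least 1 FPKM. Genes 2-fold apart were counted; no test was possible. The deposited bounds of the models were added up in the same way, and 27 of the 47 genes have several models. These summed bounds are not confidence intervals: in the 4 groups they enclosed the summed FPKM of 28 to 34 of the 47 genes. Their median half-width was 3.63% to 5.17% of the midpoint. Relative depth was read from values under 0.1 FPKM, which were taken as multiples of 1 fragment's worth (whole numbers to 12, tolerance 0.2%), and absolute depth is unknown. The calculation was tested on simulated data. Python 3.11.15, pandas 2.3.3 and NumPy 2.4.6 were used.

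The genes, the 9 further gene lists, the markers and the promoter letters were chosen with earlier results of these data known. Of each role the 1 to 3 genes with the largest changes are given in full, and of the other lists up to 4 genes past the 2-fold mark per comparison, with TFEB; ORC4, RB1, CTSG and MPO are named besides. As alternatives, the pseudocount was set to 0.1 or 5 FPKM, the filter was dropped or raised to 5 FPKM, the groups were rescaled by median-of-ratios or upper quartile, and other runs used the highest model of a symbol, models of status OK alone, leaving out symbols listed at 0, a 1.5-fold mark, and bounds that do not overlap. Leaving out the 6 genes that overlap another expressed symbol (MCM7, PCNA, TYMS, DBF4, RFC4 and POLA1) was added after the data were seen.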

Additional observations from a re-analysis of the deposited data

How the results depend on the processing

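Among the counts and medians over the 47 genes and the ratios of genes past the 2-fold mark, none changed direction. The count of genes that fell with ATRA ran from 5 to 27 in shTFEB cells and from 14 to 37 in shScr cells over the alternatives: it was 5 in shTFEB cells (10.6%) and 14 in shScr cells (29.8%) under both a pseudocount of 5 FPKM, against 5.27% of all genes in shTFEB and 8.59% in shScr cells, and median-of-ratios rescaling, against 7.996% and 11.4% in the same order, and 27 in shTFEB and 37 in shScr cells at a 1.5-fold mark, at which 2 genes were higher under ATRA in shTFEB cells and 2 had a difference of responses past the mark. The median log2 ratio with ATRA was -0.58 in shTFEB and -0.82 in shScr cells with the pseudocount of 5 FPKM, which shrinks ratios by construction, and -0.54 in shTFEB and -0.82 in shScr cells under median-of-ratios rescaling. The median of the 47 genes minus that of all genes was -0.72 in shScr cells with the pseudocount of 5 FPKM, and -0.68 in shTFEB and -0.99 in shScr cells without a filter, where the many genes at 0 set the median of all genes. The other 205 summary values moved little. Of the single ratios, 2120 moved by less than 0.1 and 195 by more. Between the lines under vehicle, 19 genes were above 0 as deposited, 13 under median-of-ratios and 14 under upper-quartile rescaling. Between the lines under ATRA the counts were 44, 43 and 42 in the same order. Of the ratios of ATRA to vehicle, those of 3 genes crossed 0: POLA2 (0.06), RPA3 (0.09) and RRM2 (0.14) in shTFEB cells under median-of-ratios rescaling. RRM2 also did so under upper-quartile rescaling (0.03), and the median of the translesion polymerases in shTFEB cells was 0.09 under median-of-ratios rescaling, against -0.04 as deposited. Rescaling by median-of-ratios moved the share of higher genes among all marked genes to 56.2% in shScr cells, against 45.2% as deposited. No paired analysis was possible because the deposited tables hold 1 value per group, and for the same reason no replicate could be left out. Absolute depth is unknown, so what depth limits could not be given; 37 to 46 of the 47 genes reached 10 FPKM in each group.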

Other observations

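Of the 92 transcript models of the replication genes, 23 were listed at 0 in all groups and 10, in 10 genes, were listed at 0 in some groups and above 0 in others. In MCM7 a model was listed at 28.7 FPKM in shScr ATRA, which is 22.7% of the gene's level there, and at 0 in shTFEB ATRA, shTFEB vehicle and shScr vehicle. A model of RFC2 was listed at 7.13 FPKM in shTFEB ATRA and 11.7 FPKM in shTFEB vehicle, and at 0 in both shScr groups. A model of CDC45 was listed at 0 in both shTFEB groups, and at 2.11 FPKM in shScr ATRA and 4.95 FPKM in shScr vehicle. These are assignments of fragments among overlapping models without a replicate check, and no use of isoforms is read from them.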
